A study of Mus musculus with 2 samples.

Results

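The 8 genes described here code for keratins of simple epithelia (*Krt7*, *Krt8*, *Krt18* and *Krt19*), for uroplakins (*Upk1b* and *Upk3b*) and for cell surface glycoproteins of mesothelium (*Msln* and *Muc16*). They were chosen by symbol, and each symbol is 1 of the 32287 features that were counted. Their transcripts were counted in single cells of the thoracic aortas of 2 GFPiSMC mice, which formed 1 group (n = 2 aortas), so every comparison is between cell types of the same aortas. GFPiSMC stands for Myh11-CreERT2.mT/mG on the C57BL/6J background: a Cre recombinase that depends on tamoxifen is driven by the *Myh11* promoter of smooth muscle cells (SMCs) and switches a membrane reporter from tdTomato to GFP. Both mice received tamoxifen at 1 mg per day on 5 days from the age of 3 weeks and were 12 weeks old at analysis. Both were male per the study's methods and carried no deletion of a further gene. Cold enzyme digestion and a sort for single, live cells, not for GFP, left cells of every layer in the suspension.

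Keratins form the intermediate filaments of epithelial cells. A filament is built from pairs of a type I and a type II keratin: *Krt18* and *Krt19* code for type I and *Krt7* and *Krt8* for type II chains of simple, 1-layered epithelia. Uroplakins are membrane proteins best known from the plaques of the bladder's surface. *Upk1b* codes for a tetraspanin, and *Upk3b* codes for a single-pass partner that is also a widely used mesothelial marker. Mesothelin (*Msln*) is anchored to the outer membrane by a lipid, and mucin 16 (*Muc16*, the antigen CA125) is a large membrane mucin that binds mesothelin. Mesothelium is the flat epithelium of mesodermal origin that lines the serous cavities and covers the organs inside them, and it carries keratins while also making vimentin.

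The files held 8947 and 6263 cells (aorta 1 and aorta 2) with 47009780 and 30919996 unique molecular identifiers (UMIs, each counting 1 captured RNA molecule). Filters left 11153 cells, 6539 and 4614, at medians of 5671 and 5396.5 UMIs. The labels give 6278 and 4300 cells after the study's own filtering. The libraries shared 18 cell barcodes as deposited and 10 among the cells analysed.

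Mesothelial cells were defined without the 8 genes, as cells with a UMI of *Lrrn4* or *Wfdc2* together with a UMI of *Wt1* or *Plet1*. This gate held 352 cells: 226 in aorta 1 (3.46%, exact 95% binomial interval 3.03 to 3.93) and 126 in aorta 2 (2.73%, 2.28 to 3.24). Their median depths were 7147 and 7297.5 UMIs. All but 6 of these cells lay in the 2 clusters that were named mesothelial-like from markers. The 3 further markers that the gate did not use, *Gpm6a*, *Bnc1* and *Rspo1*, reached 1430, 111 and 644 CPM (UMIs in counts-per-million units of the cell type's own total) in aorta 1 and 1427, 117 and 625 CPM in aorta 2. These 3 summed to 2185 and 2170 CPM in the gated cells, to 9.14 and 7.64 CPM in fibroblasts and to 52.3 and 76.8 CPM in endothelial cells, of which *Gpm6a* gave 48.9 and 72.4 CPM. The other 4 of the 7 mesothelial markers are the gate genes, whose levels the gate fixes. Markers of other epithelia were at or near 0 in the gated cells: *Sftpc*, *Scgb1a1*, *Foxj1*, *Foxn1* and *Cldn4* had no UMI, *Epcam* stood at 0 and 2.23 CPM and *Trp63* at 2.94 and 3.35 CPM. Transcripts of other wall cells were present in the gated cells, with the 6 fibroblast markers at 5768 and 6759 CPM and the 6 SMC markers at 757 and 1229 CPM. The 8 endothelial markers stood at 380 and 277 CPM and the 8 myeloid markers at 546 and 225 CPM. In fibroblasts the SMC, endothelial and myeloid markers stood at 2566 and 2456, 47.5 and 48.4, and 59.6 and 78.4 CPM. What part these had in the values below was not tested. The other cell types are clusters named from markers, so fibroblast, SMC and the other names mean fibroblast-like, SMC-like and so on.

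The genes lie on 6 chromosomes of the mouse genome (mm10, gene models of GENCODE). The 3 keratin genes *Krt7* (chr15:101411043-101430313, plus strand), *Krt8* (chr15:101996698-102004482, minus strand) and *Krt18* (chr15:102028180-102032027, plus strand) share a stretch of chromosome 15. *Krt8* and *Krt18* point away from each other, with 23698 bases between their starts, and 1 annotated pseudogene bears the name of *Krt8*. *Krt19* lies at chr11:100140810-100148665 (minus strand), *Upk1b* at chr16:38773184-38800328 (minus), *Upk3b* at chr5:136038496-136046487 (plus), *Msln* at chr17:25748613-25754378 (minus) and *Muc16* at chr9:18495455-18674530 (minus). A gene model on the opposite strand overlaps *Krt7* (*Gm671*), *Krt8* (*Gm36026*) and *Muc16* (*Gm25295*), the last of which is not among the features counted. Whether counting used the strand is not given in the sources used here. The 250 bases before the RefSeq start are shown for a neighbouring type II and type I gene, *Krt8* and *Krt18*, of which 1 was found outside mesothelial cells and the other hardly at all, and for *Upk3b*, the gene with the highest level. For *Krt8* and *Krt18* that start lies inside the GENCODE gene model, so the end of the window does too. They are RefSeq sequences of GRCm38.p6, read 5′ to 3′ in the direction of the gene, and capitals mark a match to 1 of the motifs named after them.
Krt8 promoter, chr15:102004343-102004592, minus strand: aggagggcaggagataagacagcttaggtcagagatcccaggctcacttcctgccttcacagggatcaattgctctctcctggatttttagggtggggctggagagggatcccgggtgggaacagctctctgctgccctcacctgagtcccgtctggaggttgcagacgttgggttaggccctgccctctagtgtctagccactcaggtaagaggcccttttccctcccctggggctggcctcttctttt
Krt18 promoter, chr15:102027966-102028215, plus strand: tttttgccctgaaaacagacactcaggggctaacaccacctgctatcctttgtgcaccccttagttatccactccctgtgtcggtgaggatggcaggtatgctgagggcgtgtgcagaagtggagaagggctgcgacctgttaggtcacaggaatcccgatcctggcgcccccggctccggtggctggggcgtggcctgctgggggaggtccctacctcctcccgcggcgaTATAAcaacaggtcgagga
Upk3b promoter, chr5:136038246-136038495, plus strand: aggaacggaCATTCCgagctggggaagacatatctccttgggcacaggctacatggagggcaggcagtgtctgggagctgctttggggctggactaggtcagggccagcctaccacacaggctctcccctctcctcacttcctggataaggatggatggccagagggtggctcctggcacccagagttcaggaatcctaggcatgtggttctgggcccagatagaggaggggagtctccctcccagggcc
Both strands of these 250 bases were searched for the TATA box (TATAA), the GC box (GGGCGG), the CCAAT box (CCAAT), the site of AP-1 factors (TGANTCA) and the site of TEAD factors (GGAATG). The *Krt18* sequence held TATAA, 19 bases before the RefSeq start, as 22.8% of all 32817 promoters of this length did, and the *Upk3b* sequence held GGAATG on the minus strand, 241 bases before its start, as 12.6% did. None of the 5 motifs lay in the *Krt8* sequence. Sequences were listed for 5 of the 8 genes, and *Krt19*, *Upk1b* and *Msln* were not among them.

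The keratins came first by role. *Krt19* was the highest of the 4 in mesothelial cells, at 1149 CPM in aorta 1 and 1172 CPM in aorta 2 (1160 ± 16.2, SD, n = 2). *Krt18* followed with 659 and 573 CPM (616 ± 61.4), *Krt8* with 476 and 466 CPM (471 ± 6.75) and *Krt7* with 392 and 272 CPM (332 ± 84.6). Both aortas gave the same order of the 4, and *Krt7* was the member whose level differed most between them. Of the uroplakins, *Upk3b* had the highest level of all 8 genes, with 2884 and 2820 CPM (2852 ± 45.5), and *Upk1b* stood at 572 and 511 CPM (542 ± 43.3). *Msln* reached 1489 and 1429 CPM (1459 ± 43.0) and *Muc16* 427 and 440 CPM (433 ± 8.80). A 3′ library gives 1 tag per molecule, so levels are not scaled by gene length, but the efficiency of capture can differ between genes.

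In fibroblasts, SMCs, endothelial cells, myeloid cells and lymphocytes 7 of the 8 genes were at 11.1 CPM or less in both aortas. The exception was *Krt18*, with 123 and 96.5 CPM in endothelial cells and 44.7 and 39.6 CPM in SMCs. Next came *Krt19* in fibroblasts (8.45 and 11.1 CPM) and SMCs (4.70 and 2.79 CPM). *Krt8* was highest outside mesothelial cells in lymphocytes of aorta 2 (4.22 CPM, from 5 UMIs, against 0 in aorta 1), and *Upk3b*, *Msln*, *Muc16*, *Upk1b* and *Krt7* did not exceed 2.74 CPM in any other type. For every gene the mesothelial values of both aortas lay above those of the type next in order. Below that first place the order was clearest for *Krt18* (endothelial cells, then SMCs, then lymphocytes and fibroblasts, whose ranges overlapped) and *Krt19* (fibroblasts, then SMCs, then the rest, whose ranges overlapped). The second and the third type overlapped for *Upk1b*, *Upk3b*, *Muc16*, *Krt7* and *Krt8*. *Msln* was higher in fibroblasts (1.18 and 1.59 CPM) than in SMCs (0.866 and 0.436 CPM), and *Krt7* in endothelial cells (1.25 and 0.791 CPM) than in SMCs (0.433 and 0.174 CPM), each on few UMIs. Erythroid cells, 28 and 14 in number, held no UMI of any of the 8 genes, which allows up to 15.5 and 31.2 CPM (3 counts).

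**Figure D1:**
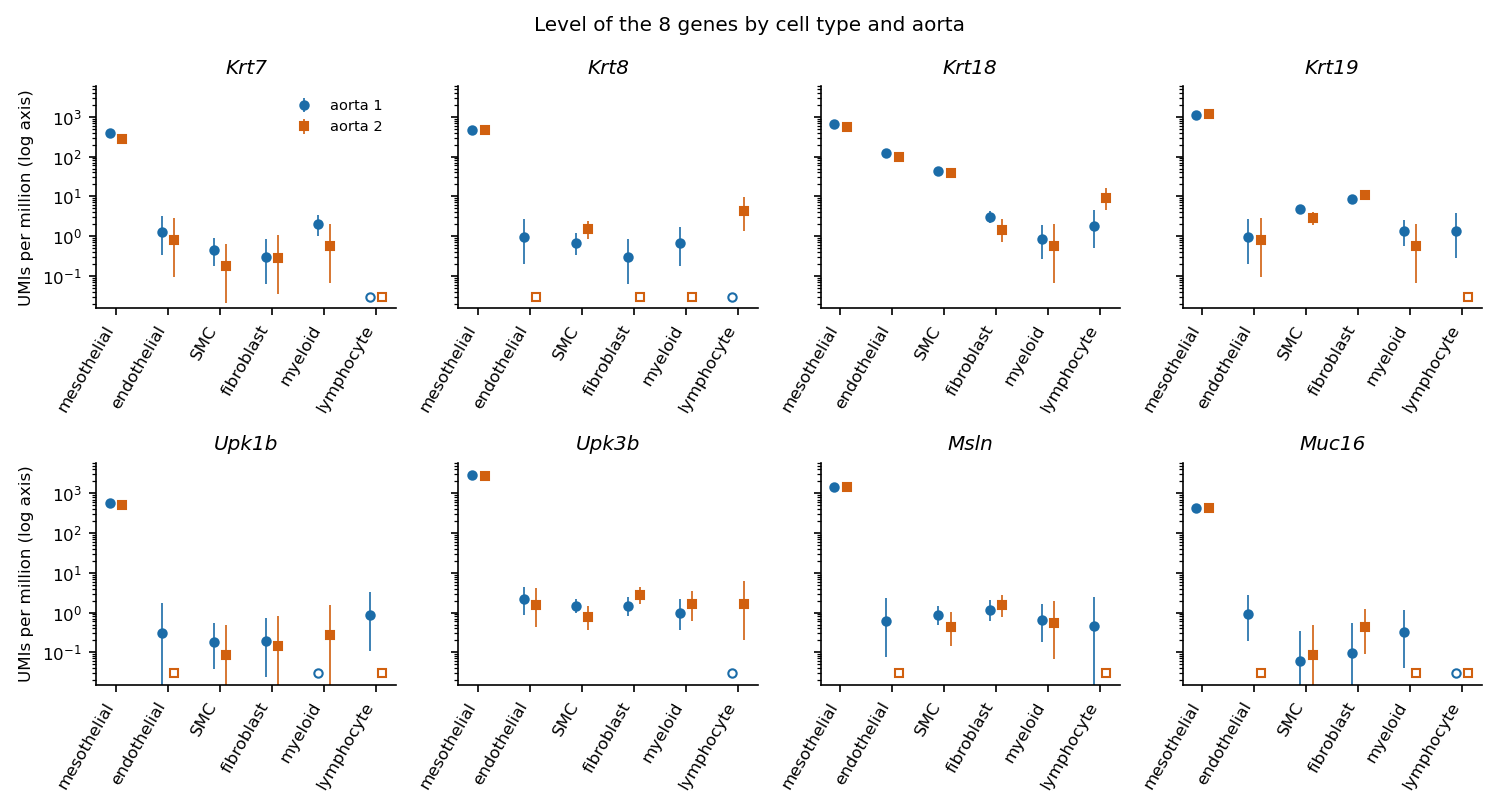
Level of each of the 8 genes by cell type, in CPM on a log axis, with a circle for aorta 1, a square for aorta 2 and exact 95% Poisson counting intervals as bars. Open symbols at the bottom stand for 0 UMIs. Mesothelial cells lie between 272 and 2884 CPM, and among the other types only *Krt18* in endothelial cells and SMCs exceeds 11.1 CPM.

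The main comparisons asked how far the 8 genes separate the outer lining of the wall from its fibroblasts, its muscle and its inner lining. The UMIs of each cell type were added up in each aorta and compared with edgeR's quasi-likelihood test, with Benjamini-Hochberg adjustment over the 13711 genes tested. A gene was called at an adjusted p under 0.05 and a log2 fold change over 1 in size. All 8 genes passed the filter on low counts, but only *Krt18* and *Krt19* passed it without the mesothelial sums, so the other 6 were bound to differ and their number is no support.

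Against fibroblasts, all 8 genes were called higher in mesothelial cells, where 11.5% of all genes tested were. *Krt19* had 1955 and 1050 UMIs in mesothelial cells and 86 and 77 UMIs in fibroblasts, and differed by 6.79 on the log2 scale (SE 0.17, adjusted p = 4.84e-18). The counting ratio was 121 (95% interval 104 to 143). *Krt18* differed by 7.88 (SE 0.23, adjusted p = 7.27e-17) from 31 and 10 UMIs in fibroblasts. The other 6 lay between 9.92 (*Krt7*, SE 0.30) and 11.27 (*Upk1b*, SE 0.24), values that rest on 3 to 34 UMIs in 1632 and 1140 fibroblasts. *Krt8*, for example, had 810 and 418 UMIs in mesothelial cells and 3 and 0 in fibroblasts, a ratio of 2696 whose counting interval runs from 920 to 13091.

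Against SMCs, all 8 genes were again called higher, beside 15.8% of all genes. *Krt18* gave the smallest difference, 3.69 (SE 0.16, adjusted p = 1.64e-14), with 1122 and 513 UMIs in mesothelial cells and 723 and 454 UMIs in SMCs. The ratio of the levels was 14.7 in aorta 1 and 14.5 in aorta 2. *Krt19* differed by 8.03 (SE 0.18) and *Krt8* by 8.64 (SE 0.26). *Upk3b* differed by 11.01, *Msln* by 10.82, *Upk1b* by 11.45 and *Muc16* by 11.92, each with 33 UMIs or fewer in 1835 and 1381 SMCs.

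Against endothelial cells, all 8 genes were called higher, beside 13.5% of all genes. Here *Krt18* differed by 2.46 (SE 0.16, adjusted p = 3.2e-11), which is a ratio of 5.36 in aorta 1 and 5.93 in aorta 2. *Krt19*, the other type I chain, differed by 10.30 (SE 0.27) and had 5 UMIs in 786 and 729 endothelial cells. *Msln* differed by 11.88, with 2 UMIs in endothelial cells. Against myeloid cells (20.4% of all genes higher) and lymphocytes (26.4%) all 8 genes were called as well. The smallest differences were 7.56 for *Krt7* against myeloid cells, which had 14 of its UMIs, and 6.77 for *Krt18* against lymphocytes, which had 15. *Krt7* and *Muc16* had no UMI in 452 and 254 lymphocytes and were at least 400-fold and 493-fold higher in mesothelial cells (floor of 3 counts over the group).

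**Figure D2:**
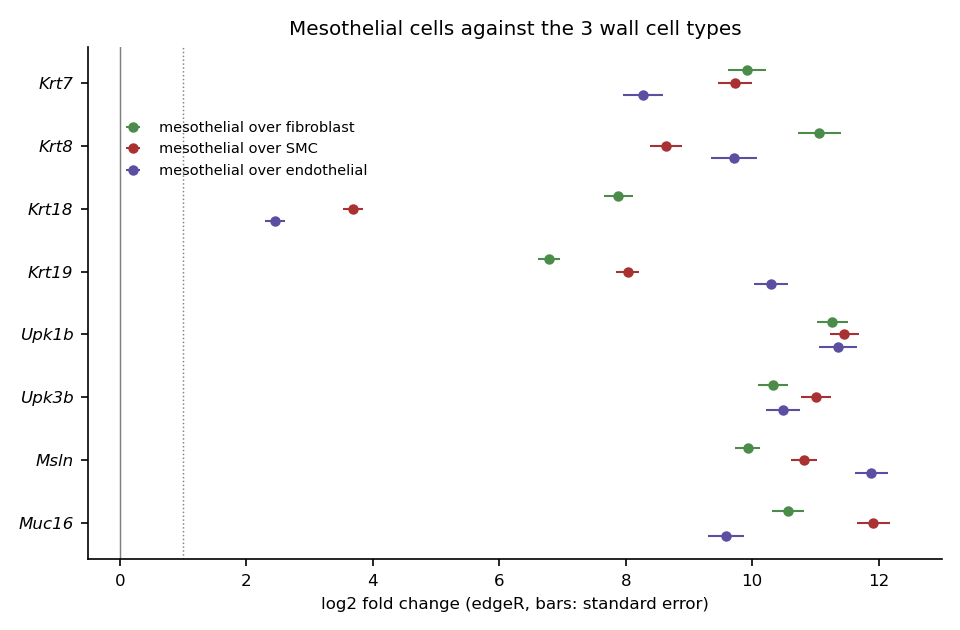
Log2 fold change of each gene in mesothelial cells over fibroblasts, SMCs and endothelial cells (edgeR, bars are standard errors). *Krt18* stands apart at 2.46 against endothelial cells and 3.69 against SMCs, and the other values lie between 6.79 and 11.92.

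Between cell types other than mesothelial cells, only *Krt18*, *Krt19* and *Krt8* were called with the main settings. Against fibroblasts, *Krt18* was higher in endothelial cells by 5.42 (SE 0.25, adjusted p = 6.14e-14; 11.7% of all genes were called higher) and in SMCs by 4.19 (SE 0.25, adjusted p = 4.67e-12; 11.7%). It was also higher in endothelial cells than in SMCs, by 1.23 (SE 0.16, adjusted p = 1.18e-06; 15.3%). *Krt19* ran the other way. It was lower than in fibroblasts, with a log2 difference of -3.51 in endothelial cells (SE 0.51, adjusted p = 6.33e-06; 14.3% of all genes were called lower) and of -1.24 in SMCs (SE 0.23, adjusted p = 0.000106; 14.6%). For SMCs over fibroblasts the *Krt19* ratio was 0.556 in aorta 1 (95% counting interval 0.403 to 0.766) and 0.251 in aorta 2 (0.161 to 0.384), intervals that do not overlap. Endothelial cells also lay below SMCs in *Krt19*, with a difference of -2.27 (SE 0.59, adjusted p = 0.00276; 14.8%), with 5 UMIs in endothelial cells. *Krt8* was called higher in SMCs than in fibroblasts, by 2.43 (SE 0.90, adjusted p = 0.0275), but from 28 UMIs against 3. Of those 28 UMIs, 10 were in a single cell of the cluster led by proliferation genes in aorta 2, and the call was lost in 4 of the alternative settings given further on. In a fit of SMCs and fibroblasts alone *Krt8* was too low to be tested. The uroplakins, *Msln*, *Muc16* and *Krt7* were not called in any of these 3 comparisons. This depended on the settings: *Msln* was called lower in SMCs than in fibroblasts with DESeq2 (-1.13, adjusted p = 0.0249), and with mesothelial cells taken as clusters *Upk3b*, *Msln* and *Muc16* were. With the main settings their log2 differences lay between -1.96 (*Msln*, endothelial cells over fibroblasts, SE 0.86, adjusted p = 0.0717) and 2.33 (*Muc16*, endothelial cells over SMCs, SE 1.19, adjusted p = 0.109).

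The share of cells with a UMI was led by the same 3 genes as the levels. With each cell thinned to 1000 UMIs, *Upk3b* was found in 88.5% and 90.5% of mesothelial cells (97.3% and 98.4% unthinned), *Msln* in 65.5% and 66.7% and *Krt19* in 63.3% and 57.9%. *Upk1b* (48.2% and 35.7%), *Krt18* (45.6% and 35.7%), *Krt8* (34.1% and 38.9%), *Muc16* (31.9% and 27.8%) and *Krt7* (31.4% and 23%) followed. Each of the 8 was thus met in at least 23% of cells of either aorta at this low depth. Thinned endothelial cells had *Krt18* in 9.92% and 6.58% of cells and SMCs in 3.43% and 3.33%, whereas thinned lymphocytes, which serve as a measure of free RNA, had it in 0% and 0.39%. Unthinned, the shares were 28.1% and 20.6% of endothelial cells at medians of 3678 and 3027 UMIs, 23.2% and 18.1% of SMCs at 8769 and 8325 UMIs, and 0.885% and 2.76% of lymphocytes at 4476.5 and 4083.5 UMIs. *Krt18* in endothelial cells and SMCs was therefore above the lymphocyte background in both aortas. In fibroblasts *Krt18* was found in 1.35% and 0.70% of unthinned cells, which overlaps that background, and *Krt19* in 2.33% and 3.68%. The lymphocyte background of *Krt18* was uneven. In aorta 2 all 11 of its UMIs lay in the lymphocyte cluster led by *Igkc* (23.5 CPM), with up to 4 in 1 cell.

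The ratio of 2 genes was also compared between cell types. *Krt18* made up 58.1% of the *Krt18* and *Krt8* UMIs of mesothelial cells in aorta 1 (95% interval 55.8 to 60.3) and 55.1% in aorta 2 (51.8 to 58.3). In endothelial cells it made up 99.2% and 100% of them and in SMCs 98.5% and 96.4%. Both types thus had *Krt18* with little of its type II partner *Krt8*. *Krt19* made up 28.5% and 29.4% of the *Krt19* and *Upk3b* UMIs of mesothelial cells, against 85.1% and 80.2% in fibroblasts and 76.0% and 78.0% in SMCs. *Msln* made up 34.0% and 33.6% of the *Msln* and *Upk3b* UMIs in mesothelial cells and 44.4% and 36.7% in fibroblasts, with overlapping intervals. What part free RNA had in these counts was not tested.

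Clusters placed the non-mesothelial keratin transcripts more narrowly, with gated cells left out of them. *Krt18* stood at 141 and 87.6 CPM in the endothelial cluster led by *Cytl1*, *Pecam1*, *Emcn* and *Vwf* and at 126 and 169 CPM in the one led by *Adra2a*, *Stmn2* and *Gkn3*. In the lymphatic-like cluster, with *Prox1* and *Mmrn1*, it stood at 6.20 and 0 CPM (1 UMI), and the cluster led by *Gpihbp1* and *Fabp4*, with 41 and 48 cells, had none, which allows up to 19.7 and 29.3 CPM. *Krt18* thus stood higher in the first pair of endothelial clusters than in the other pair, in both aortas. In SMCs the clusters with *Wif1* and *Mylk4* (60.7 and 49.3 CPM) and with *Chgb* and *Wnt16* (47.9 and 57.8 CPM) lay above the cluster with *Dlx5* and *Dlx6* (15.3 and 11.8 CPM). The small cluster led by *Pln*, with 28 and 22 cells, had no *Krt18* UMI, which allows up to 16.7 and 18.9 CPM. Among fibroblasts *Krt18* was highest in the cluster led by *Mab21l2* and holding *Ccl19* (17.6 and 18.3 CPM).

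*Krt19* was placed differently. Its highest level outside mesothelial cells was 62.2 and 44.2 CPM in the fibroblast cluster with *Pi16* and *Cd55*, and among SMCs it was highest in the *Dlx5* cluster (19.7 and 8.84 CPM), where *Krt18* was low. The cluster with *Dio2* and *Lum* had 1.05 and 3.57 CPM of *Krt19* (3 and 5 UMIs). These clusters were made with the 8 genes left out, and their values are a description without a test.

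**Figure D3:**
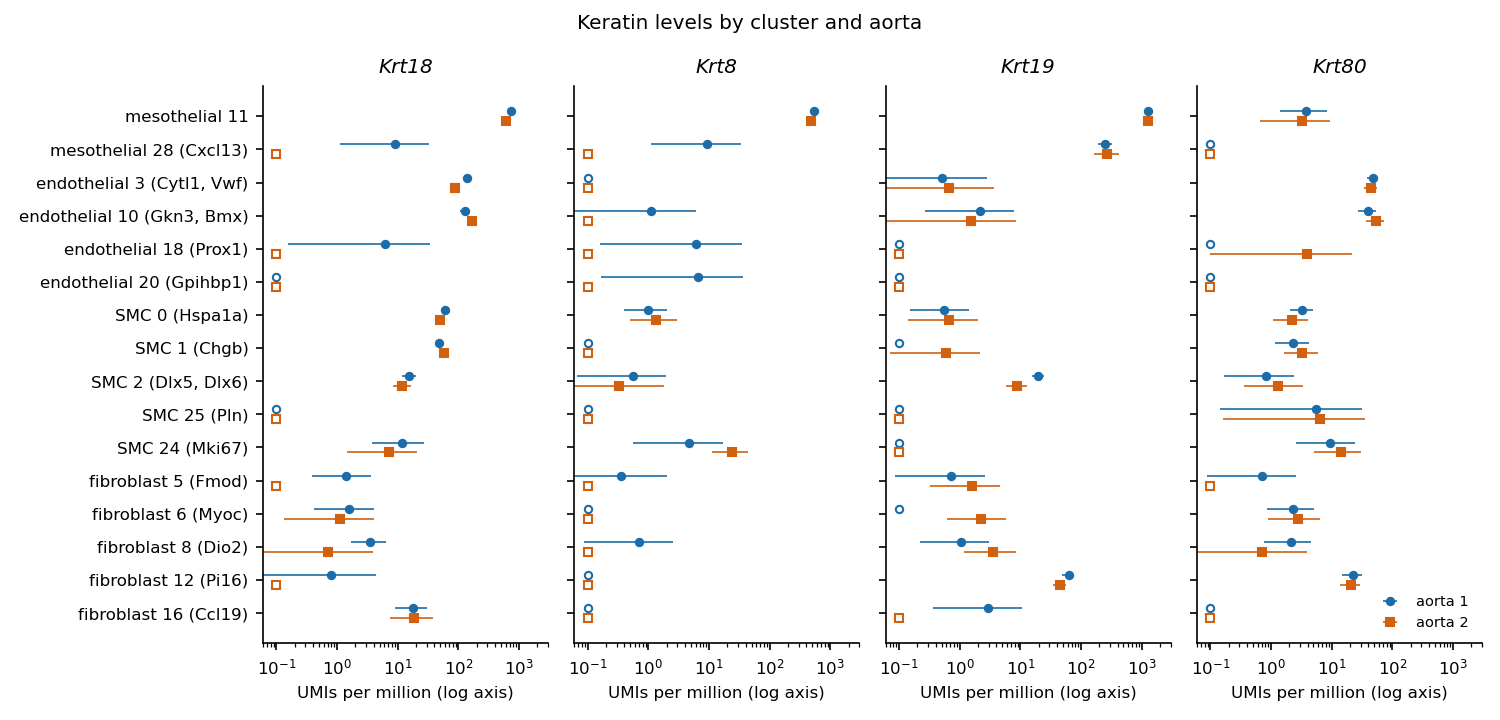
*Krt18*, *Krt8*, *Krt19* and *Krt80* in the mesothelial, endothelial, SMC and fibroblast clusters, in CPM on a log axis, with circles for aorta 1, squares for aorta 2, exact 95% Poisson counting intervals as bars and open symbols for 0 UMIs. Outside the mesothelial clusters *Krt18* is highest in 2 endothelial clusters (87.6 to 169 CPM) and *Krt19* in the *Pi16* fibroblast cluster (44.2 and 62.2 CPM).

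Of 49 other keratin genes, 23 had a UMI in any cell and only 5 reached the model. In mesothelial cells *Krt14*, a type I keratin of basal epithelial cells, was the one called higher than in fibroblasts. It stood at 26.4 and 43.5 CPM, had no UMI in fibroblasts or endothelial cells, and was at least 184-fold and 61.7-fold higher. Type I keratins together made up 1867 and 1807 CPM of mesothelial cells, of which *Krt19* gave 61.6% and 64.9%, and type II keratins made up 874 and 742 CPM, of which *Krt8* gave 54.5% and 62.9%. In endothelial cells the type I sum was 134 and 110 CPM, 91.6% and 87.8% of it *Krt18*. The type II sum was 44.5 and 41.9 CPM, 91.5% and 97.2% of it *Krt80*, a type II keratin that mesothelial cells had at 4.70 and 3.35 CPM. The log2 difference of *Krt80* between mesothelial and endothelial cells was -3.28, a called decrease. It stood at 47.9 and 44.5 CPM in the *Vwf* cluster, at 39.2 and 52.7 CPM in the *Gkn3* cluster, at 0 and 3.94 CPM in the lymphatic-like cluster and at 0 in the *Gpihbp1* cluster, so that it was highest in the pair of endothelial clusters with most *Krt18*. Among single endothelial cells, *Krt80* was found in 15.8% and 13.3% of those with *Krt18* and in 10.1% and 10.7% of those without, whose median depths were 4835 and 4519.5 against 3235 and 2740 UMIs. The part of depth in that difference was not tested.

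Of the summed UMIs of all 8 genes, mesothelial cells held 13697 of 16223 UMIs in aorta 1 (84.4%, 95% interval 83.9 to 85.0) and 6884 of 8776 in aorta 2 (78.4%, 77.6 to 79.3). They held 4.14% and 3.24% of all UMIs. By gene, the share was 43.0% ± 5.41 for *Krt18* (SD, n = 2), 82.5% ± 4.06 for *Krt19*, and between 87.8% ± 4.73 (*Krt7*) and 91.8% ± 1.08 (*Upk1b*) for the other 6. *Krt18* was thus the 1 gene with more UMIs outside the gated cells than in them. Part of what lay outside was in 52 and 34 cells of the mesothelial-like clusters that missed the gate, at medians of 1787 and 2553.5 UMIs. After thinning, 84.6% and 85.3% of these had *Upk3b*, 75% and 61.8% had *Msln* and 69.2% and 55.9% had *Krt19*. *Muc16* was found in 15.4% of them in aorta 1 and 26.5% in aorta 2, where the gated cells of the same aorta had it in 31.9% and 27.8%.

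Single mesothelial cells mostly carried at least 6 of the 8 genes. All 8 genes were found in 125 cells of aorta 1 (55.3%) and 47 cells of aorta 2 (37.3%), at least 6 in 83.2% and 73.8%, and none in 2 cells of aorta 1 and 0 of aorta 2. The median was 8 and 7 genes per cell. Outside the mesothelial-like clusters and the gate only 9 cells had 3 or more of the 8 genes: 5 fibroblasts, 2 SMCs, 1 endothelial cell and 1 cell without a name. Of lymphocytes, 98.2% and 96.1% had none.

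Over the 352 mesothelial cells, which share 2 libraries and differ in depth, the correlation of log values between pairs of the 8 genes ran from 0.24 (*Krt19* with *Muc16*) to 0.62 (*Krt7* with *Msln*). *Krt8* with *Krt18* gave 0.56. Both genes of that pair were found in 71.6% of cells, *Krt18* alone in 11.1% and *Krt8* alone in 5.11%. *Upk3b* was found without *Krt7* in 35.2% of cells and *Krt7* without *Upk3b* in 0.284%.

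The 8 genes did not vary as 1 block among mesothelial cells. The gate genes split the cells into 80 and 26 with *Plet1* but no *Wfdc2*, 84 and 43 with both, 28 and 44 with *Wfdc2* but no *Plet1*, and 34 and 13 with neither. *Krt7* stood at 619 and 591 CPM in the *Plet1* cells, 394 and 324 CPM in cells with both, 182 and 86.8 CPM in the *Wfdc2* cells and 82.7 and 108 CPM in cells with neither. *Msln* ran alike, with 2095 and 2721, 1637 and 1630, 806 and 719, and 403 and 678 CPM, and so did *Krt8*, *Krt18* and *Muc16*. *Krt19* varied less, at 1218 and 1188 CPM in the *Plet1* cells and 1005 and 1142 CPM in the *Wfdc2* cells, as did *Upk3b* at 3345 and 3393 against 2635 and 2339 CPM. Cells with neither had less of both, with *Krt19* at 668 and 711 CPM and *Upk3b* at 1550 and 1605 CPM. *Upk1b* stood at 657 and 720 CPM in the *Plet1* cells, 664 and 376 CPM in the *Wfdc2* cells and 300 and 314 CPM in cells with neither. The counting intervals of the *Plet1* and the *Wfdc2* cells lay apart for *Krt7* in both aortas (555 to 688 against 124 to 257 CPM in aorta 1). They also lay apart for *Upk3b* in both (3194 to 3501 against 2401 to 2886 CPM in aorta 1) and overlapped for *Krt19* (1127 to 1313 against 863 to 1165 CPM). Aorta 2 had more *Wfdc2* cells and fewer *Plet1* cells than aorta 1, beside its lower *Krt7* in all mesothelial cells. These splits are on the genes of the gate and on 2 aortas, and no test was made.

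The 4 subclusters of the gated cells, made without the 8 genes, the gate genes or the other lists, gave a similar picture. The subcluster led by *Cdkn1c*, *Lum* and *Igf1* (58 and 57 cells) had *Krt7* at 128 and 76.0 CPM and *Msln* at 686 and 713 CPM. The subcluster led by *Lyz2* and *Tyrobp* and holding *Cst9* (106 and 37 cells) had *Krt7* at 602 and 570 CPM and *Msln* at 2284 and 2494 CPM, and the one with *Sncg*, *Hba-a1* and *Krt14* (46 and 28 cells) had *Krt7* at 490 and 337 CPM. *Lyz2*, a macrophage gene, stood at 1004 and 515 CPM in the second of these, and *Acta2*, an SMC gene, at 605 and 1450 CPM in the first, and the part of RNA from those cells was not tested. *Plet1* was lower in the first (238 and 121 CPM) than in the second (604 and 601 CPM), and *Wfdc2* higher (374 and 868 against 124 and 254 CPM).

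The last subcluster, with *Cxcl13* and *Saa3* (16 and 4 cells), lacked most of the set. *Krt7*, *Krt8*, *Krt18* and *Muc16* stood at 11.2 CPM in aorta 1 and at 0 in aorta 2, and *Msln* at 5.62 CPM and 0. With so few cells a count of 0 allows up to 16.9 CPM in aorta 1 and 56.0 CPM in aorta 2. *Krt19* was still present at 304 and 336 CPM and *Upk3b* at 647 and 93.3 CPM. These cells had *Pdgfra*, a fibroblast receptor gene, at 574 and 280 CPM, which the other subclusters had at 55.0 CPM or less, and *Dcn* at 9449 and 10838 CPM. They met the gate through *Lrrn4* and *Wt1*, since *Plet1* and *Wfdc2* had no UMI in them, so all 16 and 4 are among the 34 and 13 cells with neither gene above. Whether they are mesothelial is not settled by these values, and all 8 genes stayed called in the 5 mesothelial comparisons without the *Cxcl13* cluster.

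**Figure D4:**
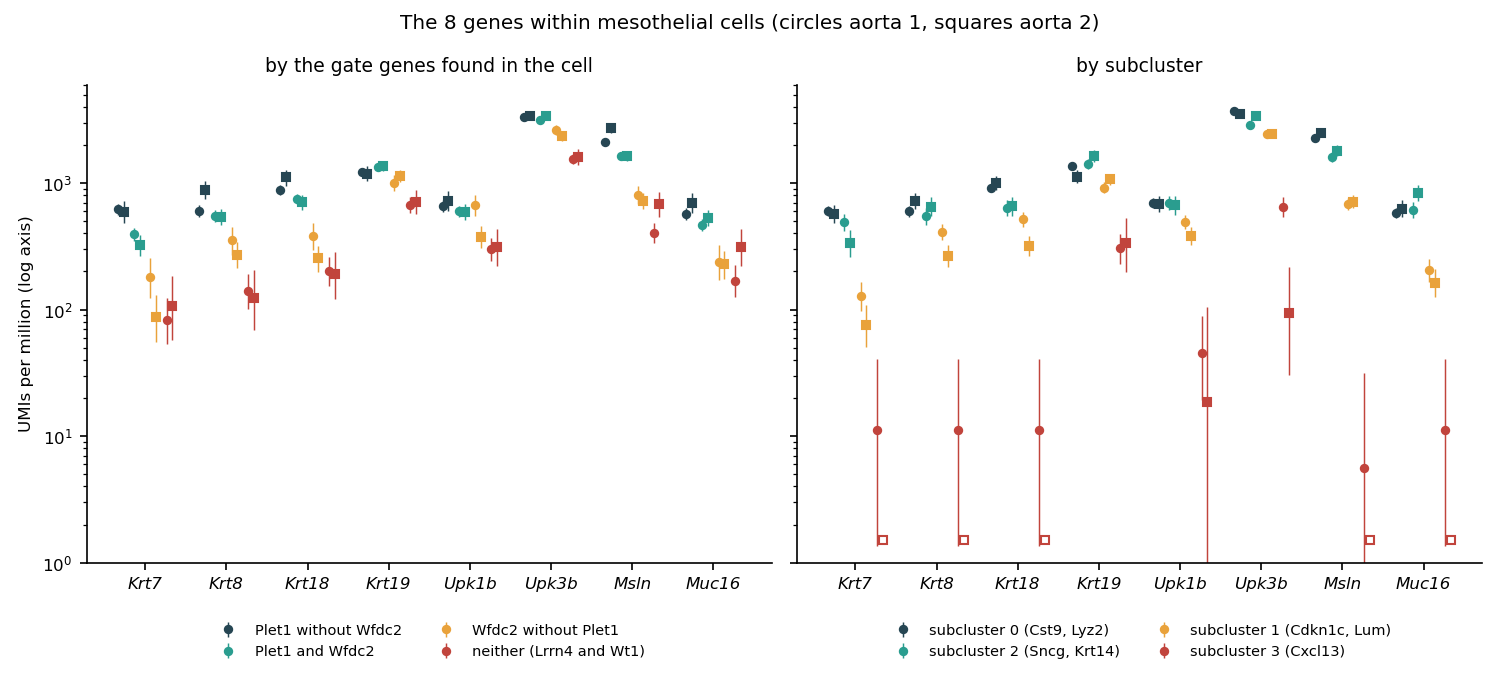
The 8 genes within mesothelial cells, in CPM on a log axis, split on the left by the gate genes found in the cell and on the right by subcluster, with circles for aorta 1, squares for aorta 2 and exact 95% Poisson counting intervals. Open squares near the bottom stand for 0 UMIs. *Krt7* falls from 619 and 591 CPM in the *Plet1* cells to 182 and 86.8 CPM in the *Wfdc2* cells, and the *Cxcl13* subcluster keeps *Krt19* (304 and 336 CPM) with 11.2 CPM of each other keratin in aorta 1 and 0 UMIs in aorta 2, which allows up to 56.0 CPM.

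Genes whose proteins work beside keratins and surface mucins were counted by list. Beside these counts, 11.5% of all genes tested were higher and 13% (1783 genes) lower in mesothelial cells than in fibroblasts, 15.8% and 13.5% against SMCs, and 13.5% and 12.4% against endothelial cells. Of the 130 genes on the lists 56 were tested, and 6 of these (*Krt14*, *Dsg2*, *Evpl*, *Cgn*, *Pard6b* and *Cdh3*) passed the filter only through the mesothelial sums, so that they were bound to differ and are no support. Of 13 desmosome and plakin genes, which anchor keratin filaments at cell contacts, 11 were tested and 6 were higher and 0 lower in mesothelial cells than in fibroblasts, with a median log2 fold change of 1.47 against -0.03 over all genes. *Dsg2* and *Evpl* are among the 6, and without them 4 of 9 were higher and the median was 0.49. *Dsg2*, a desmosomal cadherin, had no UMI in fibroblasts and was at least 191-fold higher, the plakin *Evpl* differed by 6.86, and the plakophilins *Pkp3* and *Pkp2* by 3.61 and 3.56. Against endothelial cells 6 were higher and 3 lower, or 4 and 3 of 9 without *Dsg2* and *Evpl*. Against SMCs 5 were higher and 3 lower, or 3 and 3 of 9 without these 2 genes (median 0.21). *Dsp*, desmoplakin, which ties keratins to the desmosome, was among the lower ones, at 20.6 and 21.2 CPM in mesothelial cells and 211 and 198 CPM in SMCs (log2 difference -3.48). Desmosomal genes were thus not all highest where keratins were.

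Of 19 genes of tight and adherens junctions and of cell polarity, 14 were tested, and 8 were higher, *Cgn*, *Pard6b* and *Cdh3* included, and 1 lower than in fibroblasts (median 3.42). Without these 3 genes 5 of 11 were higher and the median was 2.9. *Cldn15*, a claudin that forms pores for cations, stood at 531 and 550 CPM against 0.688 and 1.87 CPM (log2 difference 8.69). *Cgn* (cingulin), *Pard6b* (a polarity protein) and *Cdh3* (P-cadherin) differed by 7.46, 7.14 and 7.06. *Cldn7* was lower (log2 difference -3.34, adjusted p = 0.00841), a call that DESeq2 did not make (0.0559). *Ocln* was called higher on 3 UMIs against 0. Against SMCs 9 were higher and 0 lower, and against endothelial cells 7 were higher and 2 lower. Without the same 3 genes the numbers higher were 6 and 4, and the medians 2.60 and 0.03 in place of 3.07 and 3.06.

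All 6 linkers between membrane proteins and actin were tested, of which 2 were higher and 1 lower than in fibroblasts. *Ezr*, ezrin, the linker of microvilli, stood at 936 and 943 CPM against 20.7 and 17.0 CPM (5.50), and *Slc9a3r1*, the scaffold EBP50 that binds ezrin, at 488 and 508 CPM (6.42). *Msn*, moesin, was lower (-1.15), a call lost with doublets kept. Against SMCs 2 of the linkers were higher and 1 lower. Against endothelial cells 2 were higher and 2 lower (*Slc9a3r2* at -4.16 and *Msn* at -2.18). Of 10 other intermediate filament genes 7 were tested, and *Lmna* (-1.14) and *Nes* (-2.42) were lower and none higher. The *Nes* call was lost with doublets kept and with a minimum of 5000 UMIs. *Vim*, vimentin, was not called, at 1422 and 1574 CPM in mesothelial cells and 2123 and 2416 CPM in fibroblasts. Against SMCs 5 of the 7 were lower, *Vim* among them (log2 difference -2.11, adjusted p = 2.41e-10), and none higher. Against endothelial cells 2 were higher, *Des*, the muscle filament desmin (4.17), and *Lmnb1*, a nuclear lamin (1.30), and 1 was lower (*Nes*, -3.63). With 3 of the 4 gate genes required or a minimum of 5000 UMIs, 1 was higher and 2 were lower. Without the *Cxcl13* cluster 2 were lower.

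Among 9 other membrane mucins and surface glycoproteins 4 were tested, and *Podxl* (3.31) and *Pdpn* (1.81), both mucin-like proteins of podocytes and other linings, were higher and 0 lower than in fibroblasts. Against endothelial cells 1 was higher (*Pdpn*, 3.82) and 2 lower: *Podxl* stood at 25.9 and 17.9 CPM in mesothelial and 319 and 315 CPM in endothelial cells (-3.81), and *Cd24a*, a small surface glycoprotein, at 4.11 and 1.12 against 202 and 167 CPM (-5.92). The gated cells also held endothelial markers, at 380 and 277 CPM against 7147 and 7675 CPM in endothelial cells. The part of endothelial RNA in their *Podxl* was not tested. Of 9 other tetraspanins, the family of *Upk1b*, 8 were tested, with 4 higher (*Tspan8* by 8.72, *Tspan15* by 4.89, *Cd82* by 3.71, *Cd151* by 1.76) and 2 lower (*Cd63* at -1.46 and *Cd9* at -1.41) than in fibroblasts. Against SMCs 3 were higher and 2 lower (1 lower with DESeq2 or without TMM), and against endothelial cells 3 were higher and 1 lower. None of the 4 other uroplakins reached the model, each being too low in UMIs to be tested. Of 11 splicing and transcription factors listed for epithelia only *Klf5* was tested. It was not called against fibroblasts (log2 difference 0.34) and was higher than in SMCs and endothelial cells.

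Across 14 sums of cell type and aorta, the genes whose log2(CPM + 1) followed the mean of the 8 genes most closely were *Cxadr* (Pearson r = 0.993), a junctional virus receptor, then *Clic3*, *Nkx6-2*, *Gm50321*, *Slc23a3*, *Mpzl2*, *Npas3*, *Cst9*, *Tfcp2l1* and *Ckmt1* (0.990), out of 14454 genes compared. *Cxadr* stood at 254 and 262 CPM in mesothelial cells and 0.295 and 0.144 CPM in fibroblasts. These sums share 2 libraries, and 2 of them are mesothelial, so a gene found in mesothelial cells only will score high. Of the 8 genes, *Krt18* followed the mean of the other 7 least (0.724), then *Krt19* (0.948), and the rest lay between 0.971 and 0.992.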

How the data were processed

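Per the file headers, the authors counted UMIs per gene and cell with Cell Ranger 4.0.0 on mm10, with eGFP and tdTomato added, from 3′ libraries of 2 aortas. The deposited values are raw counts, and the submitters' processing notes also name Seurat 4.0, which was not applied to these values. Cells with over 200 genes, 1000 to 25000 UMIs and under 10% mitochondrial UMIs were kept, and 205 (3.04%) and 84 (1.79%) doublets called by Scrublet were removed. Cells were clustered with scanpy 1.11.5 (2000 variable genes, 30 principal components, 15 neighbours, Leiden at resolution 1) without the 8 genes, the listed genes and mitochondrial genes. Of 30 clusters 27 were named from marker lists, and 913 cells stayed unnamed. Gated cells were removed from the other types. Ungated cells of the mesothelial-like clusters entered no test.

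The UMIs of each type with at least 10 cells in each aorta were added up and compared in 1 edgeR 4.0.16 model (R 4.3.3; TMM, filterByExpr, cell type as the only term) by quasi-likelihood F-tests, adjusted after Benjamini and Hochberg. The standard error is the log2 fold change over the square root of F. The p-values measure the spread between 2 aortas, which were separate animals. Deviations of types from the same animal correlated between -0.044 and 0.519 over 15 pairs of types (median 0.178, 1649 genes), so a fit with the aorta as a block was an alternative. Intervals cover counting error only, exact Clopper-Pearson for shares and Poisson for levels. In a mesothelial sum a count of 0 allows up to 1.76 and 3.35 CPM (3 counts). The tests were tested on simulated counts first.

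The 8 genes and all lists were chosen with earlier results of these data known. The text gives all 8 genes, up to 4 genes a list and direction with the largest called change against fibroblasts and at least 20 UMIs, and the 10 genes most alike; *Krt80*, *Dsp*, *Vim*, *Des*, *Lmnb1*, *Ocln*, *Cd24a* and *Klf5* were chosen after their values were seen. RefSeq promoters matched 5 of 8 genes by symbol.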

Additional observations from a re-analysis of the deposited data

How the results depend on the processing

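All 8 genes were called higher in mesothelial cells in all 5 comparisons under every alternative that gave a test: DESeq2, library totals without TMM, no filter on low counts, other cell filters, doublets kept, other clusterings, other gates and no *Cxcl13* cluster (the last added after seeing the data). Only *Krt18* and *Krt19* passed the main filter without the mesothelial sums. The calls of the other genes were bound to come and are no support here either. The replicate block, which pairs the sums of 1 aorta, left the number of genes called at 8 in each of these comparisons, at 2, 3 and 2 in the others, and changed no call among the 8 genes. The *Krt18* difference ranged from 2.35 to 2.63 against endothelial cells and from 3.57 to 3.88 against SMCs. SMCs against fibroblasts depended most on the settings: with mesothelial cells taken as clusters in place of the gate, 5 genes were called in place of 3, since *Upk3b* (-1.34), *Msln* (-1.53) and *Muc16* (-2.25) were then called lower in SMCs and *Krt8* (1.53, adjusted p = 0.110) was lost. The *Krt8* call was also lost with a minimum of 5000 UMIs (0.0779, with a larger difference of 4.08), with doublets kept (0.181) and with the 8 genes in the clustering (0.121), and with only SMCs and fibroblasts in the fit *Krt8* did not pass the filter, which left 2 genes called. DESeq2 added *Msln* (-1.13) to that comparison, which made 4 genes. *Msln* was also called for endothelial cells against fibroblasts with the clusters (-2.86, 3 genes), and *Krt7* for endothelial cells against SMCs without UMI limits (adjusted p = 0.0495, 3 genes). Mesothelial cells held 81.4% of the 8 genes' UMIs on average over the aortas, 89.2% as clusters and 70.3% when 3 of the 4 gate genes were required. The median share of mesothelial cells with a UMI was 42.1% at 1000 UMIs, 63.5% at 2000, 84.8% unthinned and 70.6% with at least 2 UMIs unthinned. Without TMM the median of all genes moved from -0.03 to 0.14 against SMCs, from -0.02 to 0.25 against myeloid cells and from 0.08 to 0.43 against lymphocytes, and 4392 genes were higher and 1673 lower against lymphocytes in place of 3621 and 2263. With 1 aorta left out no residual degrees of freedom remained, so those are values without a test. They are differences of log2 CPM with a small count added, not refits of the model. Their distance from the main values therefore also holds a change of measure. None of the 8 genes' called differences changed sign, but 71 of 94 moved by more than the standard error of the main fit and 23 did not. That standard error is not a spread between the aortas. Against fibroblasts *Krt7* stood at 8.41 without aorta 1 in place of 9.92, and *Krt8* at 9.24 without aorta 2 in place of 11.06. The counting ratios in the aorta that was kept were 944 for *Krt7* and 1614 for *Krt8*, against 1200 and 2696 over both aortas. Over all alternatives, values with 1 aorta left out included, the differences against fibroblasts ranged from 9.24 to 13.68 for *Krt8* and from 7.19 to 9.23 for *Krt18*. *Krt8* in SMCs over fibroblasts ranged from 0.66 to 4.08. The causes of these shifts were not tested.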

Other observations

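The cells that the filters removed, 2408 in aorta 1 and 1649 in aorta 2, still held transcripts of the set. *Krt18* stood there at 50.2 and 34.4 CPM and *Krt19* at 45.4 and 19.5 CPM. These cells were given no type, and their values enter no comparison.

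Among clusters of other types, *Krt80* was not highest in endothelial cells. It was found in the myeloid cluster led by *Plac8*, *Chil3* and *Ly6c2*, at 207 and 100 CPM, and in the one led by *Slpi*, *Saa3* and *Prg4* at 68.1 and 70.7 CPM, against 39.2 to 52.7 CPM in the endothelial clusters with *Vwf* and *Gkn3*. The *Pi16* fibroblast cluster, which had the highest *Krt19* outside mesothelial cells, also held *Krt80* at 22.0 and 20.4 CPM.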
